A study of Arabidopsis thaliana with 20 samples.

Results

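Transposable elements (TEs) of at least 500 and under 2000 bases, called medium TEs below, were taken from the counts of an Arabidopsis thaliana RNA-seq study by their identifier, which marks a TE and its chromosome, and by their annotated length. There were 8980 such elements among 31189 TEs and 58844 features in all, with a median length of 843 bases. The other TEs were 19754 short elements, under 500 bases, and 2455 long elements, of 2000 bases or more. The identifiers carried no family name and no position in the sources used here, so the elements are named by identifier only and no sequence is shown.

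TEs are repeated mobile sequences that plants mostly keep silent by DNA methylation and repressive histone marks. In RNA-directed DNA methylation, small RNAs guide a methyltransferase to TEs, and SUVH2 and SUVH9, which bind methylated DNA, help to recruit the polymerase that makes the scaffold RNA there. DNA polymerase epsilon, whose catalytic subunit is encoded by POL2A, copies the leading strand during replication, and loss of its function is known to release some silenced loci in Arabidopsis.

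The study compared polyadenylated RNA from 5 genotypes in 2 tissues, with 2 libraries in each of the 10 groups. The genotypes were pol2a-1suvh2suvh9, called the triple mutant below, suvh2suvh9, pol2a-2, pol2a-1 and wild type (WT), and the labels name no treatment. For the pol2a-2 libraries, so called in their titles, the genotype field reads pol2a-1, and the title was followed. Meiocytes, which are the cells that undergo meiosis, were taken from buds at floral stages 9 to 10, with 300 to 400 meiocyte masses for a library. Seedlings were 20 days old, with 4 to 5 plants ground for a library. Every plant grew at 20 °C under 16 h of light. In such bulk samples, fewer cells of a type and less RNA per cell cannot be told apart. The library kit does not keep strand, so reads of a TE and of a gene that overlaps it cannot be told apart.

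The libraries held 11932325 to 20941920 counts in meiocytes and 11906055 to 34451852 in seedlings. POL2A stood at 65.6 and 67.7 counts per 1000000 counts of the library (CPM) in triple mutant meiocytes, 148 and 188 in suvh2suvh9, 155 and 156 in pol2a-2, 89.8 and 89.5 in pol2a-1, and 236 and 165 in WT meiocytes. In seedlings POL2A stood at 36.3 and 39.6 CPM in the triple mutant, 46.9 and 45.3 in suvh2suvh9, 30.6 and 65.9 in pol2a-2, 28.5 and 29.3 in pol2a-1, and 47.2 and 41.1 in WT. SUVH9 stood at 0 to 0.0590 CPM in the 4 meiocyte libraries of the triple and suvh2suvh9 mutants, against 13.4 and 6.54 in WT meiocytes, and at 0.522 to 1.16 CPM in the matching seedlings, against 33.8 and 29.8 in WT seedlings. SUVH2 was still counted, with 11.2 and 8.92 CPM in triple mutant meiocytes and 11.7 and 15.5 in suvh2suvh9, against 41.5 and 38.4 in WT meiocytes. The fall in suvh2suvh9 meiocytes was not called (edgeR adjusted p = 0.102). In the matching seedlings SUVH2 stood at 3.33 to 4.31 CPM, against 7.95 and 10.8 in WT seedlings. The 8 meiocyte markers summed to 3030 to 3645 CPM in meiocyte libraries and 11.3 to 41.9 CPM in seedlings, while 13 tapetum markers, of the layer that surrounds meiocytes, summed to 241 to 639 CPM in meiocyte libraries.

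Splits between the libraries had to be set beside every comparison. Of the tested nuclear genes with at least 50% repeated sequence, 0 to 1 were without a count in each triple and suvh2suvh9 seedling library, against 30 to 38 of 141 in each pol2a-2, pol2a-1 and WT seedling library. Among meiocytes the split ran elsewhere: 1 to 5 of 184 such genes were at 0 counts in the pol2a-2 and pol2a-1 libraries, against 55 to 65 in the triple, suvh2suvh9 and WT libraries. Tested medium TEs at 0 counts numbered 8 to 13 of 398 in triple and suvh2suvh9 seedlings and 24 to 36 in the other seedlings. In meiocytes they numbered 18 to 53 of 340, and there the 2 sets of libraries overlapped. In the comparisons that cross it, this split in repeated genes and the genotype cannot be told apart. These are the triple and suvh2suvh9 seedlings against WT and the pol2a meiocytes against WT. Seedlings also split by organellar counts. Chloroplast genome genes took 0.0215 to 0.0443% of counts in triple and suvh2suvh9 seedlings, against 2.11 to 2.42% in pol2a-2, pol2a-1 and WT seedlings. Mitochondrial genome genes took 0.00157 to 0.00276%, against 0.00636 to 0.00801%, in the same libraries. That split cannot be told apart from the genotype either. A fit without organellar and repeated genes, given at the end, changes only which features enter it. The part of the split in the seedling results was not tested otherwise.

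**Figure D1:**
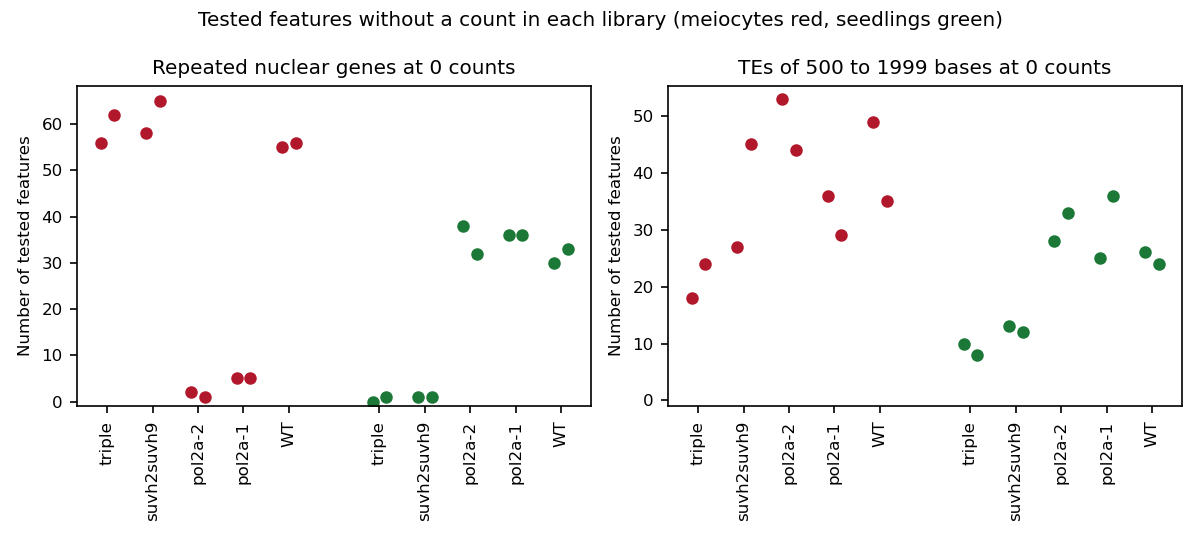
Number of tested features without a count in each library, for nuclear genes with at least 50% repeated sequence (left) and for medium TEs (right). Each point is a library, with 2 for each genotype, and triple stands for pol2a-1suvh2suvh9. Repeated genes were nearly all counted in the pol2a meiocytes and in the suvh2suvh9 and triple seedlings, where at most 5 were at 0, while for the TEs only the seedlings separated along that line.

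Most of the elements were not detected in these libraries. No count in any of the 20 libraries was recorded for 5586 of the 8980 elements, or 62.2%, and 693 reached at least 10 counts in at least 1 library. Only 70 reached 10 counts in all 20. By chromosome, 153 of 2093 elements on chromosome 1, 119 of 1713 on 2, 148 of 1760 on 3, 115 of 1478 on 4 and 158 of 1936 on 5 reached 10 counts somewhere. These shares lay between 6.95% on chromosome 2 and 8.41% on chromosome 3. Shorter members of the class were seen more often: a median of 2.89% of the 5726 elements of 500 to under 1000 bases reached 10 counts in a meiocyte library, against 2.11% of 2274 elements of 1000 to under 1500 bases and 2.19% of 980 elements of 1500 to under 2000 bases.

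The class differed from both other size classes in every library. The share of elements with at least 10 counts was 2.16 to 3.86% for medium TEs, 3.37 to 5.32% for short TEs and 2.77 to 8.31% for long TEs. It was below that of both other classes in all 20 libraries, by a mean of 1.40 ± 0.213 percentage points against short TEs and 1.5 ± 1.23 against long TEs (SD, n = 20). Per kilobase of annotated sequence, medium TEs gave 0.178 to 0.252 CPM, short TEs 1.76 to 2.51 CPM and long TEs 0.0484 to 0.112 CPM. The class was thus below short TEs and above long TEs in 20 of 20 libraries. Each of these 4 differences had p = 2e-05 by a two-sided paired permutation test, with the same adjusted p, the smallest that the resampling can give. The 20 libraries come from 10 groups, so they are not 20 independent samples of one condition. The same elements were scored in every library, and the per-kilobase measure divides by the length that defines the classes. The p-values thus describe only how steady the differences were over these libraries.

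Together the elements took 0.182 to 0.214% of all counts in meiocytes, or 1820 to 2137 CPM, and 0.151 to 0.191% in seedlings, or 1508 to 1907 CPM. In meiocytes the triple mutant reached 2084 and 2137 CPM, suvh2suvh9 1958 and 1981, pol2a-2 2065 and 1964, pol2a-1 1920 and 2031, and WT 2005 and 1820. The 2 triple mutant meiocyte libraries lay above both WT libraries, while the other mutants overlapped with WT. Markers of other cell types ran the same way: the 13 tapetum markers summed to 488 and 581 CPM in triple mutant meiocytes, against 241 and 259 CPM in WT meiocytes, with 0 and 2 of the 13 at 0 counts. The 9 green tissue markers summed to 1004 and 525 CPM in triple mutant meiocytes, against 395 and 194 CPM in WT meiocytes, with none at 0. No marker of either list was called by edgeR in triple mutant against WT meiocytes. The tapetum sum was also above both WT libraries in suvh2suvh9 meiocytes, at 639 and 361 CPM, and in pol2a-2 meiocytes, at 543 and 266 CPM. The green tissue sum was so in pol2a-2 meiocytes, at 503 and 484 CPM. In these mutants the summed level of the TEs overlapped with WT. The part of the markers in the summed level was not tested. In seedlings the triple mutant reached 1582 and 1650 CPM, suvh2suvh9 1681 and 1720, pol2a-2 1508 and 1832, pol2a-1 1666 and 1551, and WT 1907 and 1763. The triple, suvh2suvh9 and pol2a-1 seedlings lay below both WT seedling libraries and pol2a-2 overlapped with WT. Against WT the summed level differed by 0.04 to 0.14 on the log2 scale in meiocytes and by -0.19 to -0.11 in seedlings, and no exact permutation test, two-sided, could go below the smallest p of 0.333 that 2 against 2 libraries allow.

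**Figure D2:**
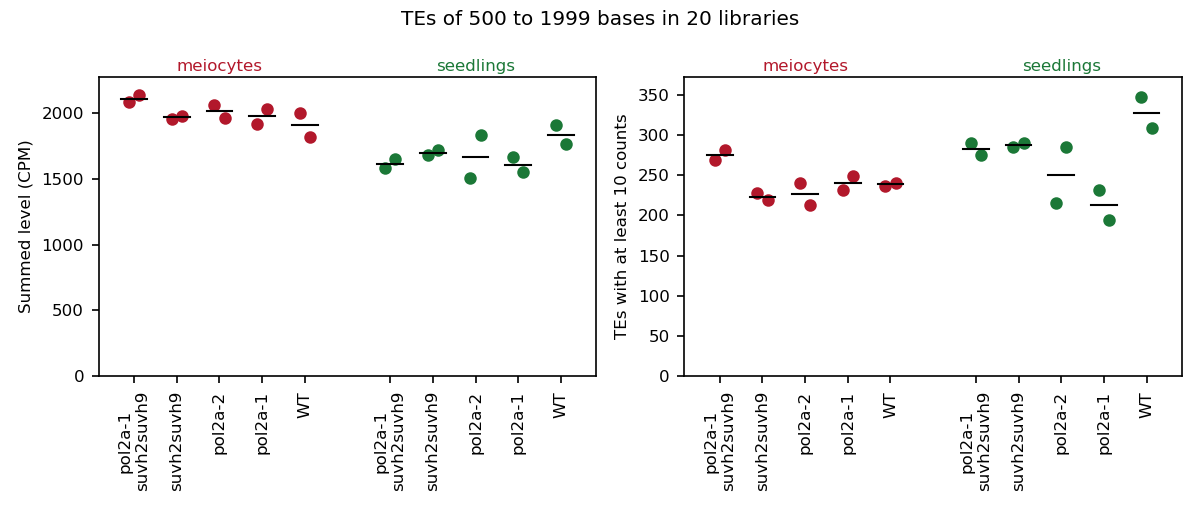
Summed level of the medium TEs in CPM (left) and number of them with at least 10 counts (right) in each library. Points are libraries, bars are group means of 2 libraries. The summed level stayed between 1508 and 2137 CPM in all 20 libraries.

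The 50 most abundant elements carried most of this signal. The 8 most abundant held 36.3% of the summed level in meiocytes and 35.0% in seedlings, and the 50 most abundant 74.4% in meiocytes and 71.6% in seedlings. In meiocytes the element of highest mean level was AT5TE69245, with 103 to 193 CPM over the 10 libraries and a median of 127, against 1.69 to 4.12 CPM in seedlings. AT5TE44595 came next by mean and had a slightly higher median, 130 CPM. Among the other leading elements, AT3TE30960, AT3TE30980 and AT3TE30975 had medians of 108, 96.2 and 66.0 CPM in meiocytes, against 2.41, 3.10 and 0.684 CPM in seedlings. Chromosome 3 as a whole gave a median of 689 CPM in meiocytes and 271 CPM in seedlings. On chromosome 5 the class gave 651 CPM in meiocytes and 425 CPM in seedlings. The other chromosomes ran the other way, with medians in meiocytes and seedlings of 333 and 423 CPM on chromosome 1, 171 and 369 CPM on chromosome 2, and 141 and 179 CPM on chromosome 4.

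The order of the leading elements differed in seedlings. AT1TE17050 had the highest mean there, with 6.54 to 19.6 CPM in meiocytes and 45.8 to 136 CPM in seedlings, where its median was 113. AT2TE26110 had a median of 9.60 CPM in meiocytes and 83.5 CPM in seedlings, and AT4TE63170 one of 2.36 CPM in meiocytes and 57.9 CPM in seedlings. Among the 8 leading elements of each tissue, AT5TE72200 and AT5TE44595 were in both sets. AT5TE72200 had a median of 60.2 CPM in meiocytes and 98.3 CPM in seedlings, and AT5TE44595 130 CPM in meiocytes and 49.5 CPM in seedlings. Per kilobase, AT5TE44595 had the highest mean of the leading meiocyte elements, with 232 CPM per kilobase, and AT2TE26110 that of the leading seedling elements, with 149.

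WT meiocytes and WT seedlings, which both lacked counts for many repeated genes, differed in most of the elements that could be tested. In a model of all 20 libraries, 504 elements passed the filter on low counts, and 123 were higher and 162 lower in WT meiocytes than in WT seedlings (edgeR quasi-likelihood test, Benjamini-Hochberg adjusted p under 0.05 over all features). These 285 calls are 56.5% of the tested elements, against 76.8% of all 24418 tested features, 35.2% higher and 41.7% lower, and 78.5% of nuclear genes. The median log2 difference of all tested features was -0.20 and that of the elements 0.00. Of the elements lower in WT meiocytes, 95 of 162 had no count in either WT meiocyte library, and of those higher, 33 of 123 had no count in either WT seedling library.

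AT3TE30935 stood at 11.6 and 7.74 CPM in WT meiocytes, against 0 and 0 in WT seedlings, which puts it at least 193-fold higher with a floor of 3 counts over both seedling libraries (adjusted p = 2.67e-06, edgeR). AT3TE24820 stood at 23.9 and 33.4 CPM in WT meiocytes, against 0 and 0.186 CPM in WT seedlings, a log2 fold change of 8.05 ± 0.57 (SE, edgeR adjusted p = 1.81e-09). AT5TE69245, the element of highest mean in meiocytes, stood at 103 and 167 CPM, against 3.16 and 2.61 CPM in WT seedlings, a log2 fold change of 5.25 ± 0.33 (edgeR adjusted p = 5.60e-10). Both meiocyte libraries were above both seedling libraries for each of these elements. AT1TE23995, AT5TE76170, AT5TE72140, AT3TE37775, AT5TE60830 and AT2TE84980 also had no count in WT seedlings, with means below 2 CPM in WT meiocytes and bounds of at least 21.6-fold to at least 36.7-fold higher. The call of AT2TE84980 was lost without WT meiocyte library 1 or either WT seedling library. AT3TE30935, AT5TE72140 and AT2TE84980 had no count in any seedling library. AT3TE24820, AT1TE23995, AT5TE76170, AT3TE37775 and AT5TE60830 had at most 0.273 CPM in any seedling library. Of the elements named here, all but AT5TE69245 passed the filter on low counts only through the meiocytes, where they are high.

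In the other direction, AT5TE48715 stood at 0 and 0 CPM in WT meiocytes, against 16.0 and 19.2 CPM in WT seedlings, at least 219-fold lower (edgeR adjusted p = 5.48e-08). AT3TE40370 was likewise at 0 in WT meiocytes, against 17.7 and 13.0 CPM in WT seedlings, at least 197-fold lower. AT5TE35015 and AT1TE56700 were at 0 in WT meiocytes, against 15.7 and 14.7 CPM and 15.1 and 10.8 CPM in WT seedlings, at least 192-fold and at least 167-fold lower. The groups did not overlap for any of these elements. AT5TE48715, AT5TE35015 and AT1TE56700 had no count in any meiocyte library, and AT3TE40370 had at most 0.222 CPM there. All of them passed the filter on low counts only through the seedlings, where they are high. Over all genotypes, 14 elements had at least 10 counts in every seedling library and none in any meiocyte library, and 2 had the reverse pattern.

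**Figure D3:**
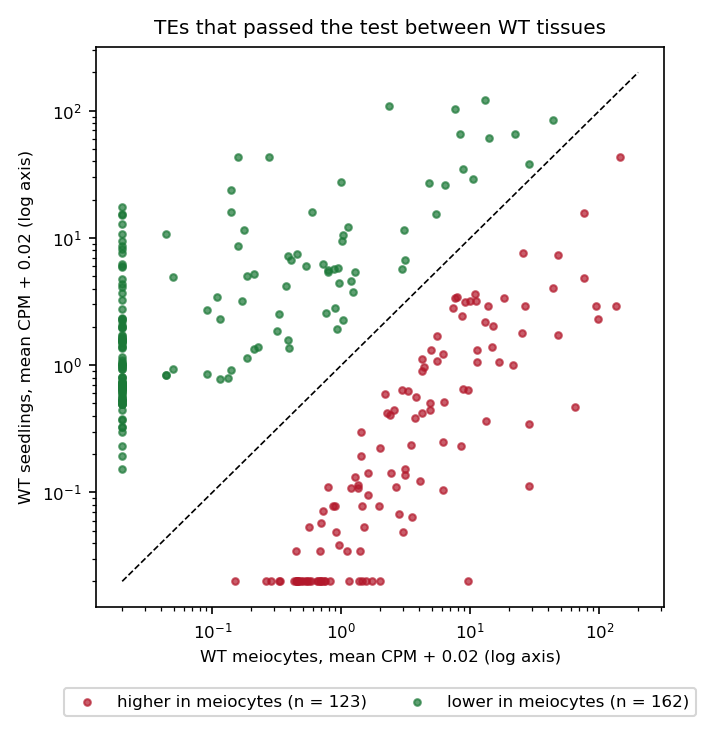
Mean CPM of the medium TEs that passed the test between WT meiocytes (horizontal) and WT seedlings (vertical), n = 2 libraries each, with 0.02 CPM added so that 0 can be drawn on the log axes. The 123 elements higher in meiocytes lie right of the dashed line of equal levels, and the column at the left edge holds elements without a count in WT meiocytes.

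Genes of the silencing machinery were called about as often as other features between the same libraries. Of 29 genes of DNA methylation and TE silencing, 17 were higher and 5 lower in WT meiocytes than in WT seedlings, against 76.8% of all tested features called, 35.2% higher and 41.7% lower. Their median log2 difference was 1.65, against -0.20 for all tested features. SUVH2 stood at 41.5 and 38.4 CPM in WT meiocytes, against 7.95 and 10.8 CPM in WT seedlings. SUVH9 ran the other way, with 13.4 and 6.54 CPM in WT meiocytes, against 33.8 and 29.8 CPM in WT seedlings. Both passed the same edgeR test.

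In pol2a-1 meiocytes 5 elements fell and none rose relative to WT meiocytes. They are 1.47% of the 340 elements tested, against 0.646% of all tested features, 0.434% higher and 0.212% lower, and all 5 carry chromosome 2 identifiers. AT2TE16940 and AT2TE16945 are close in number, as are AT2TE18495 and AT2TE18500. Without positions it could not be checked whether each pair is a single locus, so the 5 calls may not be separate events. AT2TE18495 stood at 0 and 0 CPM in pol2a-1 meiocytes, against 9.13 and 3.10 CPM in WT meiocytes, at least 69.9-fold lower (edgeR adjusted p = 0.00124). AT2TE16945 stood at 0.888 and 0 CPM in pol2a-1 meiocytes, against 27.6 and 16.6 CPM in WT meiocytes, a log2 fold change of -5.59 ± 0.69 (SE, edgeR adjusted p = 0.00113). AT2TE18500 stood at 0.832 and 0 CPM in pol2a-1 meiocytes, against 36.3 and 16.5 CPM in WT meiocytes, a log2 fold change of -5.93 ± 0.80 (edgeR adjusted p = 0.00249). The groups did not overlap for these elements, and their calls held when any 1 of the 10 meiocyte libraries was left out.

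The other 2 elements that fell, AT2TE16940 and AT2TE20875, had no count in either pol2a-1 meiocyte library, against 2.55 and 0.812 CPM and 1.78 and 1.15 CPM in the WT libraries. Their bounds were at least 19.1-fold and at least 17.2-fold lower. Both lost their call when either pol2a-1 meiocyte library or WT meiocyte library 1 was left out, with adjusted p of up to 0.197 and 0.306 (edgeR), and AT2TE20875 also without either triple mutant meiocyte library. DESeq2 called 3 elements higher and 7 lower in this comparison.

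All 5 elements had counts in both libraries of each of the other 4 meiocyte groups. In pol2a-2 meiocytes AT2TE16945 stood at 30.1 and 33.3 CPM and AT2TE18500 at 17.7 and 33.2 CPM. The triple mutant, which carries pol2a-1, had 39.0 and 38.8 CPM of AT2TE16945 in its meiocytes. In pol2a-1 seedlings AT2TE16945 stood at 58.2 and 72.0 CPM, against 68.2 and 63.2 CPM in WT seedlings, and the groups overlapped. AT2TE20875 was low in every seedling group, with 0 to 0.410 CPM. Compared with pol2a-1 meiocytes, which lie on the same side of the split in repeated genes, all 5 elements were higher in pol2a-2 meiocytes (edgeR; 1.76% of tested elements called in either direction, against 0.514% of all features, 0.358% higher and 0.156% lower). In that comparison AT2TE18495, AT2TE16940 and AT2TE20875 were at least 53.8-fold, at least 35.4-fold and at least 26.4-fold higher in pol2a-2 meiocytes, calls that were lost without pol2a-1 meiocyte library 2 and, for AT2TE16940 and AT2TE20875, also without library 1.

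In pol2a-2 meiocytes 1 element fell and none rose relative to WT meiocytes by edgeR, while DESeq2 called 3 higher and 1 lower. There were 2 calls without pol2a-2 meiocyte library 1 or without any 1 of the suvh2suvh9 and triple mutant meiocyte libraries. The 1 call is 0.294% of tested elements, against 0.646% of all features, 0.556% higher and 0.0896% lower. AT1TE10830 stood at 0 and 0 CPM in pol2a-2 meiocytes, against 6.82 and 6.06 CPM in WT meiocytes, at least 54.5-fold lower (edgeR adjusted p = 0.000103). It was also lower in pol2a-2 than in pol2a-1 meiocytes, where it stood at 6.16 and 7.60 CPM. The same element was nearly absent from pol2a-2 seedlings, with 0.0683 and 0 CPM, against 4.73 and 5.22 CPM in WT seedlings (edgeR adjusted p = 0.00121).

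In seedlings of the pol2a mutants, AT1TE93275 rose in both. It stood at 2.73 and 3.18 CPM in pol2a-2 seedlings and at 5.44 and 4.45 CPM in pol2a-1 seedlings, against 0 and 0.0373 CPM, or 1 count in all, in WT seedlings. All mutant libraries were above both WT libraries. AT1TE93275 had at most 1 count in each WT and suvh2suvh9 seedling library. Among seedlings it thus passed the filter on low counts only through the pol2a-2, pol2a-1 and triple mutant groups, where it is high. The ratio to WT was 184 in pol2a-2, with an exact 95% counting interval of 32.4 to 7336 (edgeR adjusted p = 0.000872), and 307 in pol2a-1, with an interval of 54.1 to 12196 (edgeR adjusted p = 0.00392). The pol2a-1 call was lost without pol2a-1 seedling library 1 or WT seedling library 1, with adjusted p of 0.059 to 0.0705. It was the only element called in pol2a-1 seedlings, or 0.251% of 398 tested, against 0.0269% of all features, 0.0224% higher and 0.00448% lower. Without pol2a-2 seedling library 1 or 2 there were 8 or 7 calls in pol2a-1. With the 2 pol2a groups sharing the WT libraries, the comparisons are not independent.

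In triple mutant seedlings AT1TE93275 was higher still in level, with 8.05 and 7.40 CPM, against 0 and 0 CPM in suvh2suvh9 seedlings, at least 139-fold higher (edgeR adjusted p = 0.000722). A second element, AT3TE60425, stood at 1.37 and 1.61 CPM in triple mutant seedlings, against 0 and 0 CPM in suvh2suvh9 seedlings, at least 26.6-fold higher (edgeR adjusted p = 0.0496). The groups did not overlap in either case. AT3TE60425 had 38 and 37 counts in the triple mutant seedlings and 0 to 5 in every other library, so it passed the filter on low counts only through the group where it is high. These were the only 2 elements called between the triple and suvh2suvh9 mutant seedlings, or 0.503% of those tested, against 0.247% of all features, 0.193% higher and 0.0538% lower. The call of AT3TE60425 was lost when any 1 of the WT, pol2a-1, suvh2suvh9 or triple mutant seedling libraries was left out.

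The meiocyte levels of AT1TE93275 were uneven between libraries. It stood at 7.13 and 8.62 CPM in triple mutant meiocytes, 0 and 3.62 in suvh2suvh9, 8.88 and 0.220 in pol2a-2, 0 and 0 in pol2a-1, and 0 and 0.716 in WT meiocytes. It was not called in any meiocyte comparison. AT3TE60425 had no count in any meiocyte library.

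In pol2a-2 seedlings 6 elements fell and 2 rose relative to WT seedlings, 2.01% of those tested, against 2.62% of all features, 1.69% higher and 0.937% lower. AT1TE06650 stood at 0.0683 and 0.0423 CPM in pol2a-2 seedlings, against 9.55 and 7.68 CPM in WT seedlings, a ratio of 167 with a 95% counting interval of 46.0 to 1383 (edgeR adjusted p = 4.33e-05). AT1TE12135 stood at 0.273 and 0 CPM in pol2a-2 seedlings, against 7.60 and 7.20 CPM in WT seedlings, a log2 fold change of -6.12 ± 0.61 (SE, edgeR adjusted p = 0.00166). Neither group overlapped with WT, and both calls held without any 1 of the seedling libraries. AT1TE06650, AT1TE12135 and AT1TE10830 were also lower than in pol2a-1 seedlings (edgeR; 0.754% of tested elements, against 0.386% of all features, 0.233% higher and 0.152% lower), where AT1TE06650 stood at 6.50 and 6.47 CPM. The call of AT1TE12135 against pol2a-1 was lost without pol2a-1 seedling library 2, and the calls against pol2a-1 numbered 10 without pol2a-2 seedling library 1 and 5 without library 2.

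AT1TE04710, AT4TE34655 and AT1TE42900 were the other elements that fell in pol2a-2 seedlings, and AT3TE30960 the other that rose. Of the 6 that fell, 5 carry chromosome 1 identifiers, as does POL2A, and 1 a chromosome 4 identifier. Their distance from POL2A could not be given. AT3TE30960, one of the leading meiocyte elements, stood at 5.73 and 6.90 CPM in pol2a-2 seedlings, against 2.24 and 2.35 CPM in WT seedlings, a log2 fold change of 1.38 ± 0.24 (edgeR adjusted p = 0.0206). The 8 meiocyte markers summed to 41.9 and 40.0 CPM in the same pol2a-2 seedlings, against 11.3 and 13.6 CPM in WT seedlings. Only 1 of the 8 was called higher by edgeR, and their median log2 difference was 0.57. The part of these markers in the result was not tested. The calls of AT3TE30960 and AT4TE34655 were lost without WT seedling library 1, and that of AT3TE30960 also without library 2. The calls of AT1TE04710 and AT1TE42900 were each lost without at least 6 of the single libraries. In all, pol2a-2 seedlings had 37 calls without their own library 2, 4 without WT seedling library 1 and 5 without WT seedling library 2.

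**Figure D4:**
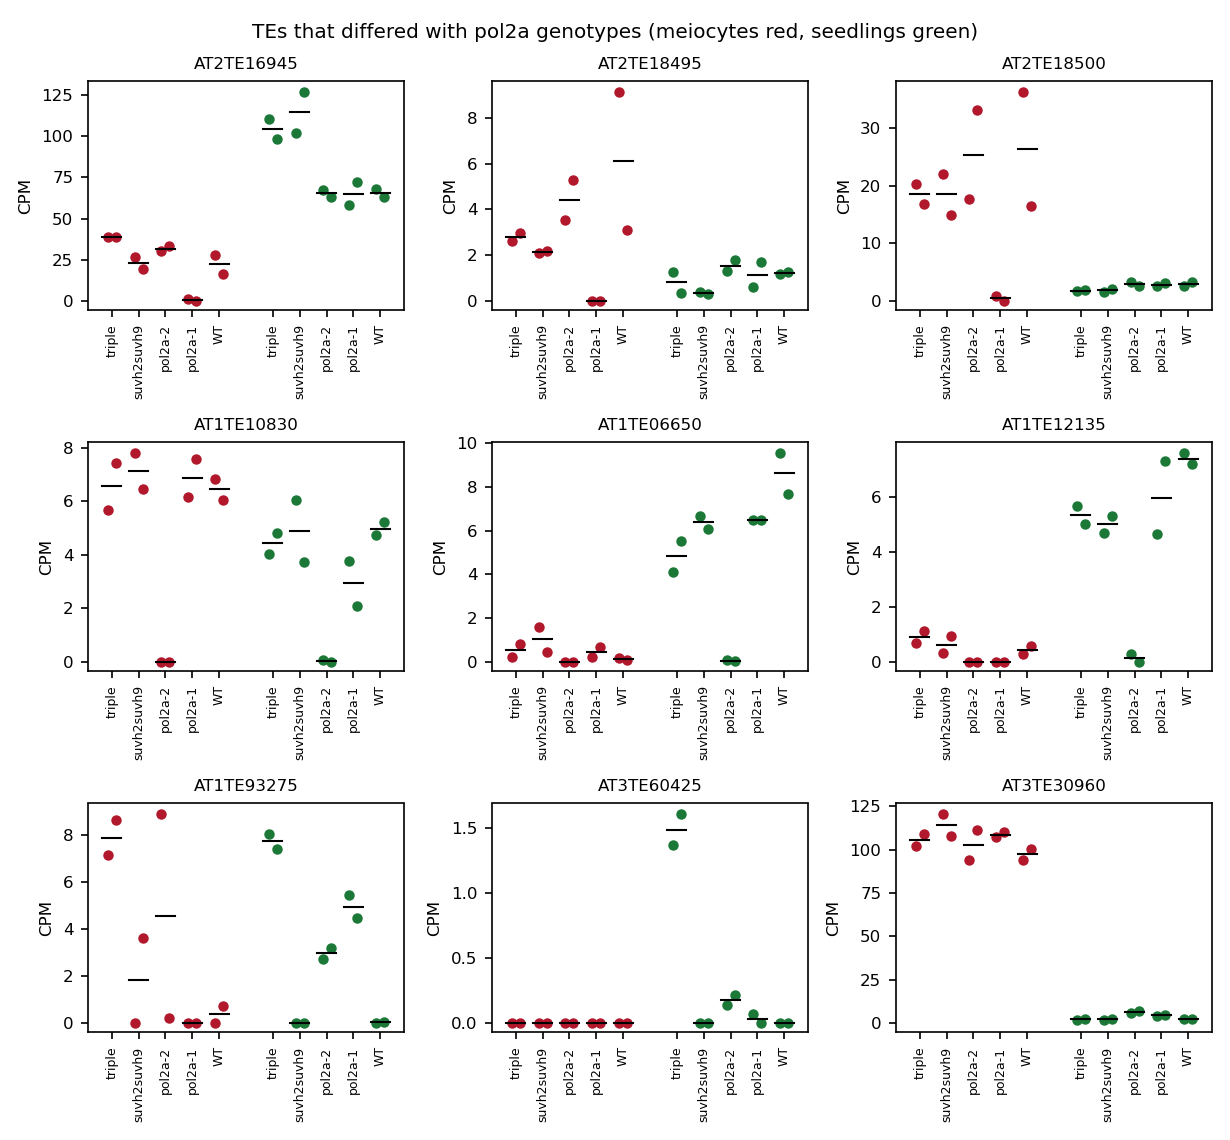
CPM of 9 TEs that passed a test involving pol2a genotypes, in each library. Points are libraries, bars are means of 2 libraries, meiocytes are red and seedlings green, and triple stands for pol2a-1suvh2suvh9. AT2TE16945, AT2TE18495 and AT2TE18500 have their lowest levels of the 10 groups in pol2a-1 meiocytes, at most 0.888 CPM, and AT1TE10830 is near 0 in pol2a-2 in both tissues.

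No element passed the test in suvh2suvh9 meiocytes against WT meiocytes, where 0.00471% of all features were called. By edgeR without adjustment, 9 elements were higher and 7 lower at p under 0.05, and DESeq2 called none in either direction. In triple mutant meiocytes none was called by edgeR, against 0.0613% of all features (0.0424% higher and 0.0189% lower), with 28 higher and 10 lower before adjustment (p under 0.05) and 4 higher and none lower by DESeq2. Triple mutant meiocytes against suvh2suvh9 meiocytes also gave no call by edgeR, against 0.0377% of all features (0.0283% higher and 0.00943% lower), with 17 higher and 8 lower before adjustment and 1 higher by DESeq2. The median log2 difference of the 340 elements was 0.00 in suvh2suvh9 and 0.16 in the triple mutant, against 0.01 for all features in both.

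Seedlings of suvh2suvh9 gave 25 elements that rose and 31 that fell relative to WT seedlings. They are 14.1% of the 398 tested, against 10.9% of all tested features (5.4% higher and 5.49% lower), 14.3% of short TEs, 13.6% of long TEs and 10.2% of nuclear genes. Triple mutant seedlings gave 29 that rose and 28 that fell, or 14.3%, against 13.3% of all features (7.21% higher and 6.08% lower), 15% of short TEs, 35.0% of long TEs and 12.6% of nuclear genes. These shares lie close to the background. The 2 mutants shared 21 of the elements that rose and 23 of those that fell, and both were set against the same WT libraries. The median log2 difference over all tested elements was -0.22 in suvh2suvh9 and -0.20 in the triple mutant, against 0.00 for all features in both.

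The counts depended on single libraries. Without WT seedling library 1 the edgeR calls were 10 in suvh2suvh9 and 15 in the triple mutant, and without WT seedling library 2 they were 21 and 23. Leaving out suvh2suvh9 seedling library 1 or 2 gave 14 or 13 calls, and leaving out triple mutant seedling library 1 or 2 gave 15 or 18. Without either pol2a-2 seedling library the triple mutant had 89 calls. In suvh2suvh9, 4 of the 25 rises and 3 of the 31 falls kept their call whichever library was left out, and in the triple mutant 6 of 29 and 4 of 28 did.

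Many of the elements that rose were uncounted or nearly so in WT seedlings. Of the 25 that rose in suvh2suvh9, 12 had no count in WT seedlings and 18 had at most 1. Of the 29 that rose in the triple mutant, 14 had no count in WT seedlings and 20 had at most 1. Such an element entered the test only through the libraries where it was counted. AT3TE70785 stood at 3.78 and 3.37 CPM in suvh2suvh9 seedlings, against 0 and 0 CPM in WT seedlings, at least 73.1-fold higher (edgeR adjusted p = 0.00227). In triple mutant seedlings it stood at 1.55 and 3.27 CPM. It had no count in either pol2a seedling group or in any meiocyte library except pol2a-2 library 2, with 0.367 CPM.

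AT2TE69490 stood at 2.86 and 2.21 CPM in suvh2suvh9 seedlings, against 0 and 0 CPM in WT seedlings, at least 51.9-fold higher (edgeR adjusted p = 0.00178). AT4TE37560 stood at 2.28 and 1.99 CPM in suvh2suvh9 seedlings, against 0 and 0 CPM in WT seedlings, at least 43.5-fold higher (edgeR adjusted p = 0.00227). AT2TE18240 stood at 4.26 and 1.46 CPM in suvh2suvh9 seedlings, against 0 and 0.0373 CPM in WT seedlings, a ratio of 176 with a 95% counting interval of 31.1 to 6999 (edgeR adjusted p = 0.00234). With AT3TE70785 these are the 4 rises whose call held whichever library was left out, and none of their suvh2suvh9 libraries overlapped with WT. In the triple mutant AT2TE69490 stood at 1.80 and 1.70 CPM, AT4TE37560 at 1.55 and 1.79 CPM and AT2TE18240 at 1.70 and 2.18 CPM, all called against WT.

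The other named rises were smaller in counts. AT5TE47755, AT5TE39630, AT2TE78945 and AT3TE63155 had no count in WT seedlings and 0.450 to 1.39 CPM in the suvh2suvh9 seedling libraries, with bounds of at least 15.1-fold to at least 20.8-fold higher. Each lost its call without either WT seedling library. AT2TE16945 was an exception in level: it stood at 102 and 127 CPM in suvh2suvh9 seedlings, against 68.2 and 63.2 CPM in WT seedlings, a log2 fold change of 0.80 ± 0.16 (edgeR adjusted p = 0.0124). It lost its call without WT library 1, WT library 2 or suvh2suvh9 library 2.

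Many of the 25 elements that rose in suvh2suvh9 seedlings were uncounted in meiocytes. In triple mutant meiocytes 17 of them had no count, in suvh2suvh9 11, in pol2a-2 18, in pol2a-1 17 and in WT meiocytes 18. With at most 3 counts over both libraries there were 18, 18, 18, 21 and 19 in the same order. The lower number in suvh2suvh9 meiocytes thus rests on elements with 1 to 3 counts. Among the other seedlings, 12 had no count in pol2a-2, 7 in pol2a-1 and 12 in WT, while 17, 18 and 19 had at most 3 counts. The pol2a meiocyte libraries lie on the same side of the split in repeated genes as suvh2suvh9 seedlings, but they are of another tissue. The part of the split in these rises was not tested. Summed, the 25 elements gave 147 and 161 CPM in suvh2suvh9 seedlings and 137 and 133 CPM in triple mutant seedlings, against 73.8 and 68.3 CPM in WT seedlings, values that the choice of the elements fixes in direction.

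The elements that fell were counted in WT seedlings, and all but 2 were still counted in suvh2suvh9 seedlings. Their WT means ran from 0.580 to 43.5 CPM in the suvh2suvh9 comparison, with 26 of 31 at 1 CPM or more, and 2 of 31 had no count in the mutant. AT5TE29570 stood at 1.47 and 0.824 CPM in suvh2suvh9 seedlings, against 8.71 and 7.68 CPM in WT seedlings, a log2 fold change of -2.82 ± 0.30 (SE, edgeR adjusted p = 0.000485). AT1TE94640 stood at 0.440 and 0.30 CPM in suvh2suvh9 seedlings, against 2.76 and 2.39 CPM in WT seedlings, a log2 fold change of -2.77 ± 0.37 (edgeR adjusted p = 0.00197). AT5TE67090 stood at 1.32 and 1.12 CPM in suvh2suvh9 seedlings, against 4.21 and 5.26 CPM in WT seedlings, a log2 fold change of -1.94 ± 0.30 (edgeR adjusted p = 0.00353). The groups did not overlap, and these are the 3 falls whose call held whichever library was left out.

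In triple mutant seedlings AT5TE29570 stood at 1.37 and 1.74 CPM, a log2 fold change from WT of -2.38 ± 0.29 (edgeR adjusted p = 0.00114), and AT1TE94640 at 0.433 and 0.392 CPM, a change of -2.60 ± 0.37 (edgeR adjusted p = 0.00238). AT2TE04635 stood at 12.7 and 12.7 CPM in triple mutant seedlings, against 26.8 and 28.7 CPM in WT seedlings, a change of -1.10 ± 0.15 (edgeR adjusted p = 0.00207). AT3TE13760 stood at 5.59 and 5.05 CPM in triple mutant seedlings, against 11.9 and 11.4 CPM in WT seedlings, a change of -1.10 ± 0.16 (edgeR adjusted p = 0.00248). Both libraries of the mutant were below both WT libraries for each of these 4 elements, and their calls held without any 1 seedling library.

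AT5TE29585 and AT1TE04710 had no count in suvh2suvh9 seedlings, against 0.639 and 0.559 CPM and 0.639 and 0.895 CPM in WT seedlings, at least 10.9-fold and at least 13.5-fold lower. Both lost their call without either WT seedling library. Of the 31 elements that fell in suvh2suvh9 seedlings, 17 had no count in WT meiocytes. The 9 green tissue markers summed to 71765 and 68914 CPM in triple mutant seedlings and to 72261 and 63119 CPM in suvh2suvh9 seedlings, against 55034 and 53394 CPM in WT seedlings, with 2 and 1 of the 9 called higher. Their part in these results was not tested.

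**Figure D5:**
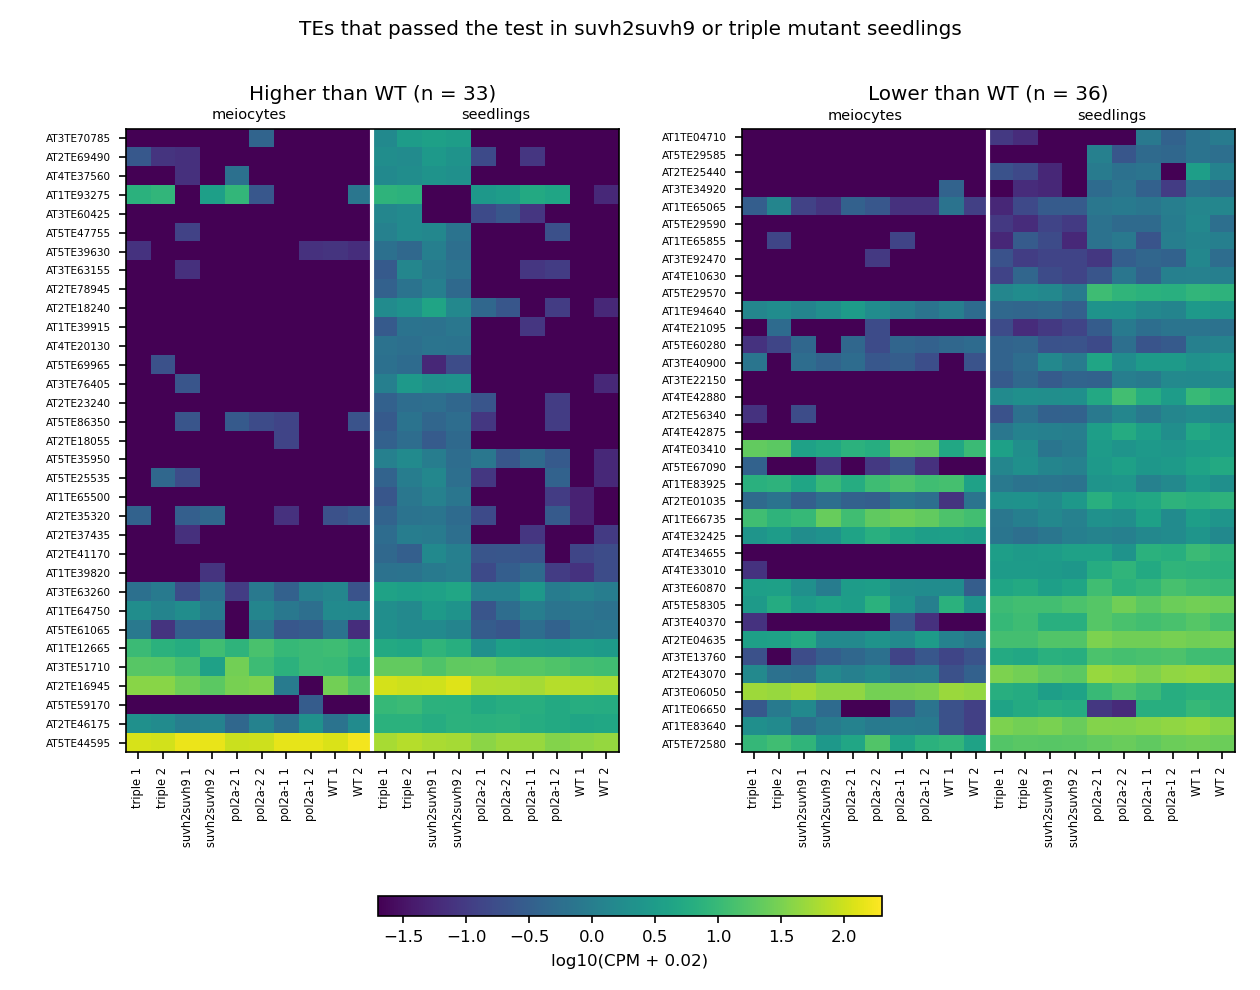
Level of the medium TEs that rose (left, n = 33) or fell (right, n = 36) in suvh2suvh9 or triple mutant seedlings against WT, in all 20 libraries. Colour is log10 of CPM plus 0.02, darkest where there was no count, and triple stands for pol2a-1suvh2suvh9. Many elements that rose are dark in WT seedlings and in meiocytes, while 2 of the 31 that fell in suvh2suvh9 had no count there.

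In suvh2suvh9 seedlings 3 of the 29 genes of the silencing machinery were called, all lower: SUVH2, SUVH9 and ROS1, which encodes a DNA demethylase. The triple mutant seedlings had 4 of 29 called. Set beside the 10.9% and 13.3% of all features called in these comparisons, the counts show nothing particular to the list. ROS1 stood at 6.50 and 1.57 CPM in suvh2suvh9 seedlings, against 38.4 and 34.6 CPM in WT seedlings, a log2 fold change of -3.16 ± 0.74 (edgeR adjusted p = 0.0238). In triple mutant seedlings AGO6, an Argonaute that binds small RNAs, and MORC6, an ATPase required for silencing, were called higher and SUVH2 and SUVH9 lower. AGO6 stood at 5.09 and 5.88 CPM in triple mutant seedlings, against 2.58 and 2.46 CPM in WT seedlings, and MORC6 at 16.2 and 20.3 CPM in triple mutant seedlings, against 13.0 and 11.2 CPM in WT seedlings. In meiocytes the calls were SUVH9 lower in suvh2suvh9 and SUVH2 and SUVH9 lower in the triple mutant.

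The response to each mutant was also set against tissue, as the log2 change from WT in meiocytes minus that in seedlings, in a model of all 20 libraries. For suvh2suvh9 4 elements differed between tissues, 0.794% of those tested, against 0.926% of all features, 0.606% higher and 0.319% lower. For the triple mutant 7 differed, 1.39%, against 3.73% of all features, 2.72% higher and 1.01% lower. AT1TE83640 had the smallest adjusted p in both mutants. It stood at 1.97 and 1.59 CPM in triple mutant meiocytes, against 0.178 and 0.0955 CPM, or 3 and 2 counts, in WT meiocytes. The other mutant meiocytes were also above both WT libraries. They had 0.561 and 0.890 CPM in suvh2suvh9, 1.17 and 0.881 in pol2a-2, and 0.943 and 0.881 in pol2a-1. Within meiocytes AT1TE83640 was not called in suvh2suvh9 or the triple mutant against WT, and both tissue differences rest on the same WT libraries. In triple mutant seedlings it had 32.6 and 28.5 CPM, against 48.4 and 38.7 CPM in WT seedlings. The triple mutant was above WT in meiocytes and below WT in seedlings, a difference of 4.02 ± 0.49 on the log2 scale (SE, edgeR adjusted p = 0.000221). The green tissue and tapetum markers were also higher in triple mutant than in WT meiocytes, as given with the summed levels, and their part in this difference was not tested. For the triple mutant, AT1TE83640 and AT3TE77415 kept this call whichever library was left out. The 7 calls became 2 without either triple mutant seedling library, 3 without either WT seedling library, 11 without WT meiocyte library 1 and 12 without either pol2a-2 meiocyte library. The 4 calls of suvh2suvh9 became 1 without suvh2suvh9 meiocyte library 2 or any 1 seedling library other than pol2a-2, and 2 without either pol2a-2 seedling library.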

How the data were processed

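Polyadenylated RNA was sequenced from 20 libraries, 2 for each of 5 genotypes in meiocytes and seedlings. The authors deposited raw read counts per gene or TE with its length. Per the submitters' processing notes, the tools were STAR 2.7.9a, cutadapt 3.4, DESeq2 1.30.1 and featureCounts 2.0.0, with TAIR10. Not given in the sources used here are the settings for strand, overlaps and reads with several hits. Nothing in the labels says whether seedling libraries came from separate cultures, so p-values measure the spread between libraries only.

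CPM was computed from the count and the total of the library. edgeR's quasi-likelihood test (version 4.0.16, in R 4.3.3) was run over all features that passed filterByExpr with a minimum count of 10, with TMM scaling, in 1 fit of 10 libraries per tissue, and of 20 for contrasts between tissues. DESeq2 1.42.0, other scalings and filters and leaving out each library were tried as alternatives. The adjusted p (Benjamini-Hochberg) threshold was 0.05. Scripts were tested on simulated data. Bounds against groups without a count use a floor of 3 counts over the group. Intervals are exact at 95% and, with the floors, cover counting error only.

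Elements were named by rule: the 8 of highest mean CPM per tissue, the 8 largest rises and 8 largest falls per comparison among called elements whose higher group averaged at least 0.5 CPM and whose libraries did not overlap, and up to 6 called in the same direction in suvh2suvh9 and the triple mutant. AT1TE83640, AT2TE43070, AT3TE16310, AT3TE60870 and AT3TE77415, called in the tests between tissues, were outside the rule and named after their values were seen. The elements, lists and rules were chosen with earlier results of these data known.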

Additional observations from a re-analysis of the deposited data

Results flagged for a closer look

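The response to suvh2suvh9, taken as the log2 change from WT in meiocytes minus that in seedlings, differed between tissues in 4 elements by a test of the difference itself (edgeR, adjusted p under 0.05). The differences were 3.87 for AT1TE94640, 3.0 for AT1TE83640, 2.90 for AT2TE43070 and 2.63 for AT2TE04635. AT2TE04635 stood at 5.46 and 1.60 CPM in suvh2suvh9 meiocytes, against 1.19 and 0.764 CPM in WT meiocytes. In suvh2suvh9 seedlings it had 16.6 and 16.1 CPM, against 26.8 and 28.7 CPM in WT seedlings.

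For the triple mutant 7 elements differed between tissues. The differences were 4.44 for AT3TE16310, 4.02 for AT1TE83640, 3.52 for AT1TE94640, 2.92 for AT2TE04635, 2.87 for AT3TE60870, 2.76 for AT3TE77415 and -1.14 for AT5TE44595. AT5TE44595, a leading meiocyte element, stood at 116 and 107 CPM in triple mutant meiocytes, against 120 and 168 CPM in WT meiocytes. In triple mutant seedlings it had 58.9 and 71.9 CPM, against 41.2 and 45.7 CPM in WT seedlings. In seedlings, but not in meiocytes, the triple and suvh2suvh9 libraries and the WT libraries lay on opposite sides of the split in repeated genes. Its part in these differences was not tested.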

How the results depend on the processing

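Of the 125 named changes, none reversed; 113 kept their call under DESeq2's Wald test, 124 with DESeq2 size factors, 122 without the filter and 112 with the replicate block. With only the compared groups, 123 had a value, of which 108 kept their call and 15 lost it. Same-numbered libraries did not deviate together (correlations of -0.24 to 0.27 in meiocytes and -0.25 to 0.21 in seedlings), so the numbers do not pair them. The block gave 1 call for triple against suvh2suvh9 seedlings and 2 for the tissue difference of suvh2suvh9; every other count stayed within 1.5 times.

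Without the filter the calls were 12, 9 and 10 in pol2a-1, pol2a-2 and triple meiocytes against WT, 2 for triple against suvh2suvh9 and 15 for pol2a-2 against pol2a-1 meiocytes. In seedlings they were 25, 33, 90 and 94 in pol2a-1, pol2a-2, suvh2suvh9 and triple against WT, 16 for triple against suvh2suvh9 and 17 for pol2a-2 against pol2a-1, and 18 for the tissue difference of the triple mutant. DESeq2's Wald test gave 10, 4 and 4 in pol2a-1, pol2a-2 and triple meiocytes, 1 for triple against suvh2suvh9 and 12 for pol2a-2 against pol2a-1 meiocytes, and 2, 5 and 6 in pol2a-1, triple against suvh2suvh9 and pol2a-2 against pol2a-1 seedlings, and 16 for the triple tissue difference. With only the compared groups the calls were 3 in pol2a-1 and 2 in pol2a-2 against pol2a-1 meiocytes, 12, 4 and 103 in pol2a-1, pol2a-2 and triple seedlings, 1 for each of triple against suvh2suvh9 and pol2a-2 against pol2a-1 seedlings, and 0 for the suvh2suvh9 tissue difference. With both pol2a alleles joined no element was called in meiocytes. DESeq2 size factors gave 1 for triple against suvh2suvh9 seedlings. With organellar and repeated genes left out, an alternative chosen after seeing the data, the calls were 52 in suvh2suvh9 and 54 in triple seedlings, 4 in pol2a-1 meiocytes and 2 for the suvh2suvh9 tissue difference. The cause of these shifts was not tested.

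The summed level reversed to -0.00248 on the log2 scale in pol2a-2 meiocytes with TMM scaling, to -0.00463 in suvh2suvh9 meiocytes without the 5 most abundant elements, and without WT meiocyte library 2 to -0.021 in pol2a-1 and -0.025 in suvh2suvh9.

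Leaving out 1 library at a time gave log2 summed levels of -0.021 to 0.12, 0.0072 to 0.15, -0.025 to 0.11 and 0.074 to 0.21 in pol2a-1, pol2a-2, suvh2suvh9 and triple meiocytes, and -0.25 to -0.13, -0.28 to -0.0021, -0.16 to -0.052 and -0.24 to -0.13 in the same seedlings. Calls ran from 3 to 7, 1 to 2, 0 to 0 and 0 to 0 in those meiocytes, 0 to 1 for triple against suvh2suvh9 and 3 to 7 for pol2a-2 against pol2a-1. In seedlings they ran from 0 to 8, 4 to 37, 10 to 78 and 15 to 89, 1 to 3 for triple against suvh2suvh9 and 2 to 10 for pol2a-2 against pol2a-1. WT tissues gave 223 to 314 and the tissue differences 1 to 4 (suvh2suvh9) and 2 to 12 (triple). Without pol2a-2 seedling library 2 that genotype had 37 calls, and without WT seedling library 1 or pol2a-1 seedling library 1 pol2a-1 had 0.

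Alternatives that need the position or repeat content of the TEs were not run, since no table used here places these identifiers. With 2 libraries a group, and 62.2% of the elements never counted, small changes of rare elements were not detectable at this depth.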
